A study of Mus musculus with 2 samples.

Results

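The genes described here are 10 mouse imprinted genes that lie outside the chromosome 12 cluster and the distal chromosome 7 cluster: Peg3, Peg10, Mest, Plagl1, Impact, Snrpn, Slc38a4, Igf2r, Grb10 and Ube3a. They were taken by name, with every probe set whose annotation gives 1 of these symbols alone, which gave 27 of the 45037 probe sets and 10 of the 18193 genes measured. The samples were 2 clones of undifferentiated mouse E14 embryonic stem (ES) cells overexpressing Klf5, a zinc finger transcription factor, clone 2 and clone 1, with 1 Affymetrix array each. Both were kept in ES medium with serum and LIF, the cytokine that sustains ES cell self-renewal, and each is a single clone; the labels do not name the promoter of the transgene. The study compared them to wild-type ES clones, not analysed here, so the values below are levels in Klf5-overexpressing cells and differences between the clones, not effects of Klf5.

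Imprinted genes are transcribed mainly from 1 parental allele in at least some tissues. For many of them the choice follows DNA methylation laid down in the egg or sperm. In the early embryo the KRAB zinc finger protein ZFP57 binds methylated copies of its motif at many imprinting control regions and, with TRIM28 and DNMT1, keeps that methylation through the genome-wide erasure. ES cells are derived at that stage and are known to lose imprints in culture, often unequally between lines and clones. The arrays measured total RNA and could not tell the alleles apart.

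The promoters of the genes differ in their content of CpG, the dinucleotide that can carry DNA methylation. Whether a promoter window overlaps an imprinting control region was not looked up. RefSeq promoter windows on build GRCm38.p6, each 300 bases long from 250 before to 50 after a transcript start, were matched by symbol for 8 of the 10 genes, 16 windows in all. Peg10 and Impact had no entry. CpG dinucleotides numbered 45 in the richer window of Grb10, 34 in Igf2r, 29 in Ube3a, 26 in Plagl1, 17 in the richest windows of Mest and 13 in Peg3, against a median of 7 over all 32851 windows. Each of the 3 windows of Slc38a4 held 5, and the 4 windows of Snrpn held between 2 and 7. The hexamer TGCCGC, which ZFP57 recognises when its CpG is methylated, was looked for on either strand. It was in at least 1 window of Mest, Plagl1, Grb10 and Snrpn, 4 of the 8 genes, against 13.1% of all genes. By windows it was in 5 of the 16, against 11.6% of all windows. The richest windows of Mest, both among the 5, overlap almost wholly. These shares were not matched for CpG content or for the number of windows per gene. The KLF-type motif GGGNGTGG, read on both strands, was found in Peg3, Grb10 and Slc38a4, 3 of 8, against 19.7% of all genes. Matches to these motifs overlapped each other 0 times in the 16 windows. A match is a stretch of letters and not a bound site. The stretches of Mest and Plagl1 are printed because their matches to TGCCGC lie before the start, and neither holds GGGNGTGG. Each line gives the 250 bases before the start, 5′ to 3′, with TGCCGC or its reverse complement in capitals. The Mest stretch is chr6:30737800-30738049 on the plus strand and the Plagl1 stretch chr10:13090582-13090831 on the plus strand.
Mest: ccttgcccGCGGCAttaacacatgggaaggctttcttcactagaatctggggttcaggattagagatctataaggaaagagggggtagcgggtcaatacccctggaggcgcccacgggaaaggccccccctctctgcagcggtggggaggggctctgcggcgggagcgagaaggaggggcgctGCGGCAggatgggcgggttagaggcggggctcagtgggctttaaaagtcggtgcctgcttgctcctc
Plagl1: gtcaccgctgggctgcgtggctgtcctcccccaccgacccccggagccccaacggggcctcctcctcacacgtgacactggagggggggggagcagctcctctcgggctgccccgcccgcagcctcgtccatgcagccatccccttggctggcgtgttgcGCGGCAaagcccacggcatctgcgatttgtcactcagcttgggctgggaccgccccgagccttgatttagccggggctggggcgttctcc
The Mest stretch has 14 CpG and 2 matches. The Plagl1 stretch has 19 CpG and 1 match.

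All values are the deposited signals, taken as log2. Probe sets bind with different affinity, so signals of different probe sets are not compared as amounts of RNA, and a highest signal named below is a reading of its probe set. In each array a background level was set from 59 genes of adult tissues, such as caseins and digestive enzymes, as the 95th percentile of their 92 probe sets. It was 6.28 in clone 2 and 6.36 in clone 1. Of the ES cell markers 10 of 10 were above it in both clones, among them Klf4, whose probe sets gave 11.67 in clone 2 and 11.16 in clone 1, and 10.41 in clone 2 and 9.29 in clone 1, the second 2.17-fold higher in clone 2. None of 6 primitive endoderm genes and none of 8 measured neural and mesoderm genes was above it in both clones. Sox17 (6.81 in clone 2 and 6.31 in clone 1), Tubb3 (6.79 in clone 2 and 6.35 in clone 1) and the smooth muscle actin Acta2 of the fibroblast list (6.35 in clone 2 and 5.99 in clone 1) passed in clone 2 alone. Of 5 measured trophoblast genes 1 passed in both, Ascl2 (7.13 in clone 2 and 7.44 in clone 1), itself an imprinted gene, and of 9 fibroblast genes 2, Pdgfrb (7.16 in clone 2 and 7.33 in clone 1) and Thy1 (7.66 in clone 2 and 7.54 in clone 1). Col1a1, a defining fibroblast collagen, was at 4.09 in clone 2 and 4.68 in clone 1, not above background. The marker genes given here were chosen after seeing their values. Klf5 gave 12.25 in clone 2 and 11.61 in clone 1 in its brightest probe set.

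Represented by the brightest probe set of each, all 10 genes passed the background level in both clones, where 50.8% of all genes did. Of their 27 probe sets 15 passed in both clones, against 42.5% of all probe sets with 1 symbol. The share over genes was not matched for the number of probe sets per gene, which was 34945 probe sets for all 18193 genes. The 10 genes were also listed with earlier results of these data known. One further probe set, of Peg3, passed in clone 1 alone, and the other 11 lay between 2.65 and 6.24. No gene differed 2-fold between the clones. This compares with 48 of the 9766 genes that passed in a clone or both, or 0.492%. In the direction of the difference, 8 of the 10 genes were higher in clone 2, as were 62.8% of the same 9766 genes, and 5 of 10 under quantile or loess normalization. The median difference, clone 2 minus clone 1, was 0.09 for the 10 genes and 0.08 for the 9766. Neither the count by direction nor the median sets the imprinted genes apart from the rest. No test was made, since each clone has a single array, and mean ± SD below is over the 2 clones.

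**Figure D1:**
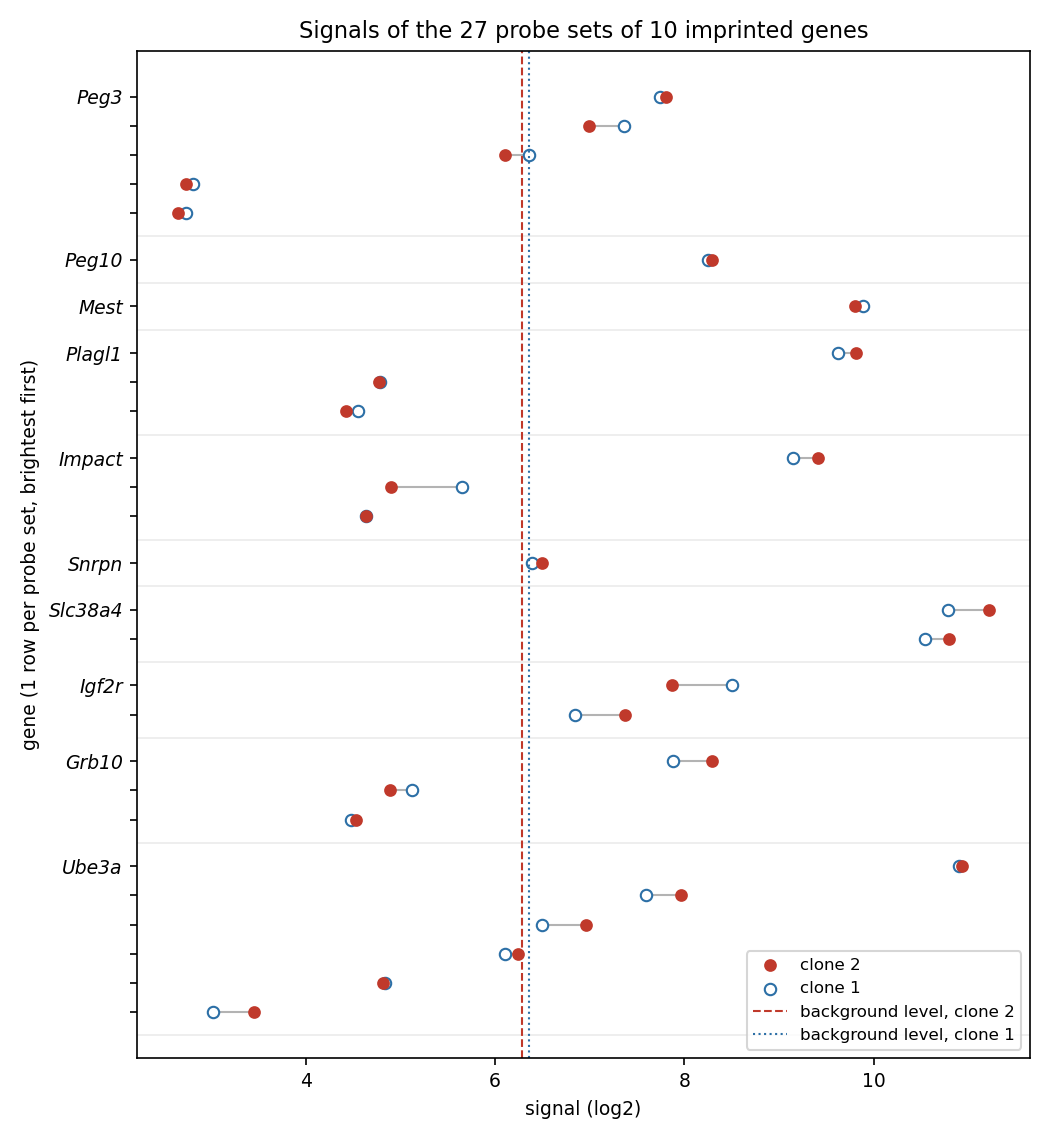
Signals (log2) of the 27 probe sets of the 10 imprinted genes, 1 row per probe set, with clone 2 as filled red points, clone 1 as open blue points and the background level of each array as a vertical line (6.28 in clone 2, 6.36 in clone 1). The brightest probe set of every gene lies to the right of both lines, with Snrpn closest to them, and the clones lie near each other in most rows.

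The 7 genes classed as paternally expressed had differences between -0.09 and 0.44, with a median of 0.11. Peg3 encodes a large zinc finger protein linked to fetal growth. Its brightest probe set gave 7.81 in clone 2 and 7.74 in clone 1 (7.78 ± 0.05, SD, n = 2). Another gave 6.99 in clone 2 and 7.36 in clone 1. One more gave 6.10 in clone 2, not above background, and 6.36 in clone 1, just over its level. Against the clone 2 level of 6.28 the clone 1 signal was 1.06-fold higher. The background level of clone 1, 6.36, is itself higher by about as much. The Peg3 probe sets therefore do not agree on a direction, and the brightest turned lower in clone 2 under quantile and loess normalization.

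Peg10, derived from a retrotransposon and needed for placental development, has 1 probe set, at 8.29 in clone 2 and 8.25 in clone 1. Mest, which encodes a protein with an alpha/beta hydrolase fold, also has 1, at 9.80 in clone 2 and 9.89 in clone 1. Probe sets above background in a clone or both were put into 4 signal bands of nearly equal size by their mean. Differences at least as large were found in 88.5% of probe sets in the same signal band for Peg10 and in 65.7% for Mest, so both genes were nearly level between the clones by this measure. Plagl1, a zinc finger transcription factor that restrains proliferation, gave 9.81 in clone 2 and 9.62 in clone 1 (9.71 ± 0.13, SD, n = 2) in a probe set that may bind several transcripts. Its other 2 probe sets were not above background.

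Impact, an inhibitor of the amino acid sensing kinase GCN2, gave 9.41 in clone 2 and 9.15 in clone 1 (9.28 ± 0.18, SD, n = 2) in the 1 of 3 probe sets above background. A difference of this size or more was seen in 32.7% of probe sets in its band. GCN2 itself (gene Eif2ak4) was at 7.48 in clone 2 and 7.09 in clone 1, and Atf4, the transcription factor translated when GCN2 is active, at 10.95 in clone 2 and 11.22 in clone 1 (both chosen after their values were seen). These are RNA signals, so neither GCN2 activity nor the translation of Atf4 was measured.

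Slc38a4, a sodium-coupled neutral amino acid transporter, had the largest positive difference of the 10 genes. Its brighter probe set gave 11.22 in clone 2 and 10.78 in clone 1 (11.00 ± 0.31, SD, n = 2) and was thus higher in clone 2 by 1.36-fold. The other gave 10.80 in clone 2 and 10.54 in clone 1. Both probe sets were higher in clone 2, also under the 3 other normalizations. Of the 4338 probe sets in the brightest band, 6.06% had a difference as large as that of the first or larger, and 21.6% as that of the second. The paralogue Slc38a2, a widely expressed transporter on the same chromosome, was at 10.70 in clone 2 and 10.48 in clone 1 (chosen after its values were seen).

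Snrpn encodes SmN, a core protein of small nuclear ribonucleoproteins, and its transcript also carries the upstream reading frame Snurf. The only probe set annotated to Snrpn alone gave 6.50 in clone 2 and 6.39 in clone 1, above the background levels by 0.22 in clone 2 and 0.03 in clone 1. The gene's place above background thus rests on a narrow margin in that probe set. A further 6 probe sets are annotated to Snurf and Snrpn together and were left out of all counts by the rule on single symbols. Of these, 4 were far above background. They gave 11.80 in clone 2 and 11.77 in clone 1, 11.80 in clone 2 and 11.67 in clone 1, 11.82 in clone 2 and 11.41 in clone 1, and 11.75 in clone 2 and 10.99 in clone 1. These 4 thus ran from 11.75 to 11.82 in clone 2 and from 10.99 to 11.77 in clone 1. The largest difference between the clones, 0.76, was matched or passed by 0.715% of the probe sets in its band, whereas the smallest difference, 0.03, was matched or passed by 89.5%. RefSeq lists 1 of the Snrpn promoter windows, chr7:60005150-60005449 on the minus strand, under Snurf as well.

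The 3 genes classed as maternally expressed differed by -0.63, 0.41 and 0.03. Which allele was in use in these cells was not measured. Igf2r, the receptor that carries mannose 6-phosphate tagged enzymes to lysosomes and takes up the growth factor IGF2, had the largest difference of the 10 genes, and its probe sets went in opposite directions. The brighter gave 7.87 in clone 2 and 8.50 in clone 1 (8.18 ± 0.45, SD, n = 2), so its signal was higher in clone 1 by 1.55-fold. The other gave 7.37 in clone 2 and 6.84 in clone 1 (7.11 ± 0.37, SD, n = 2), so its signal was higher in clone 2 by 1.44-fold. Both were above background in both clones, and each kept its direction under the 3 other normalizations. The 2 differences lay 1.16 apart. Among the 2342 genes with exactly 2 probe sets above background in both clones, 0.384% had differences at least that far apart. A direction for Igf2r therefore depends on the probe set, and the mean over both gave -0.05. Opposite directions as such were common, in 47.8% of the 3638 genes with 2 or more such probe sets and in 2 of the 4 imprinted genes among them, Igf2r and Peg3.

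Grb10, an adaptor that dampens insulin and IGF receptor signalling, gave 8.29 in clone 2 and 7.88 in clone 1 (8.09 ± 0.29, SD, n = 2) in 1 of its 3 probe sets. The signal of this probe set, which may bind several transcripts, was higher in clone 2 by 1.33-fold. The other 2 were not above background. A difference of this size or more was seen in 18.7% of probe sets of the same band. Ube3a, an E3 ubiquitin ligase whose imprinting is confined to neurons, gave 10.93 in clone 2 and 10.90 in clone 1 in the brightest of its 6 probe sets. The next 2 gave 7.96 in clone 2 and 7.59 in clone 1, and 6.96 in clone 2 and 6.50 in clone 1, so that the gap between the clones ran from 0.03 to 0.46. The remaining 3 were not above background. The brightest Ube3a probe set turned lower in clone 2 under quantile and loess normalization, as did the Peg10 probe set.

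**Figure D2:**
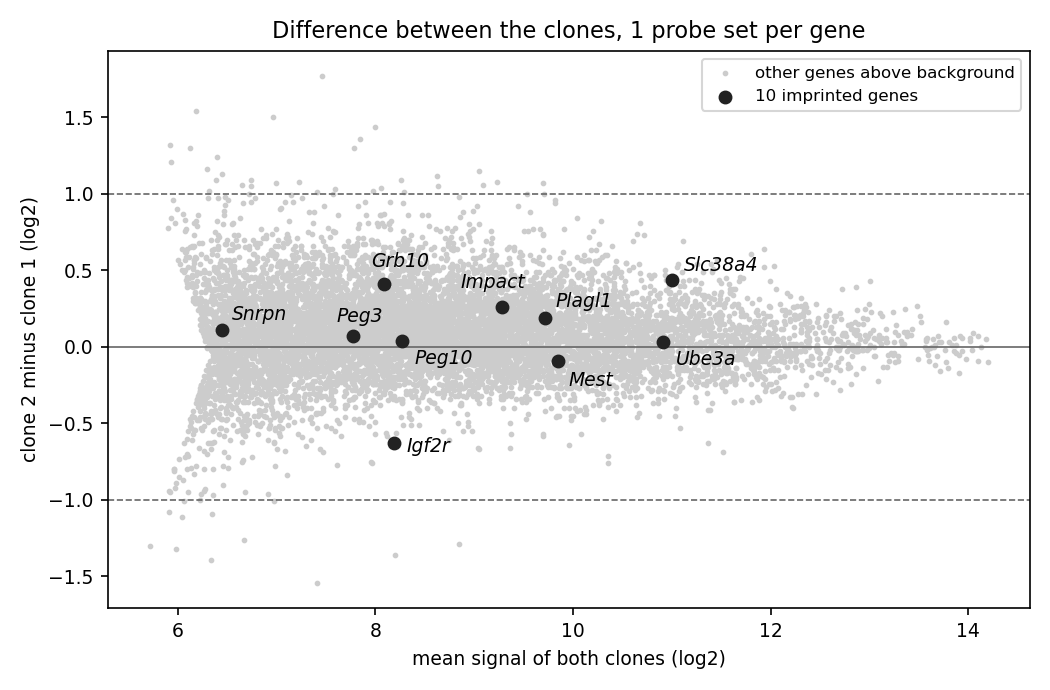
Difference between the clones (clone 2 minus clone 1, log2) against the mean signal of both clones, 1 probe set per gene, for the 10 imprinted genes (black) and the other genes above background in at least 1 clone (grey). Dashed lines mark a 2-fold difference. Igf2r at -0.63 and Slc38a4 at 0.44 lie farthest from 0 among the 10 genes, and all 10 lie between the dashed lines.

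**Figure D3:**
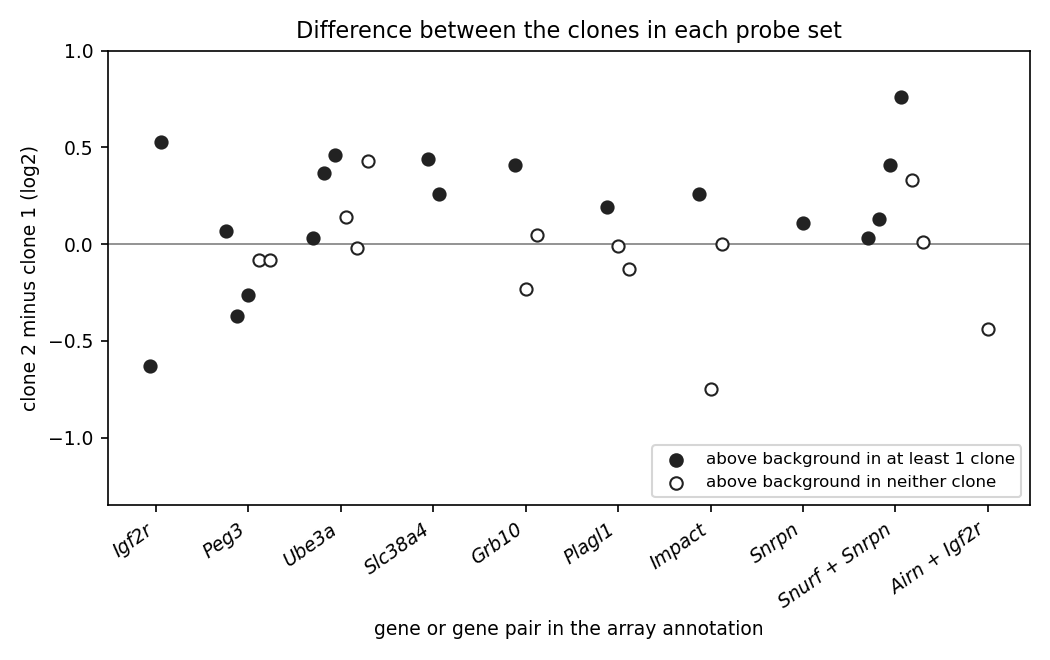
Difference between the clones (clone 2 minus clone 1, log2) in each probe set, by gene or gene pair as annotated, filled where the probe set was above background in at least 1 clone and open where it was in neither. The Igf2r probe sets lie at -0.63 and 0.53, on opposite sides of 0, and the filled points of Slc38a4, Ube3a and the Snurf and Snrpn pair are all above 0 as deposited, though the lowest of Ube3a and of the pair, both 0.03, fell below 0 under loess normalization. Peg10 and Mest have 1 probe set each and are not drawn.

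Genes near these 10 were measured in part. Of 35 measured neighbours, each on the same chromosome as its imprinted gene, 14 were above background in both clones (40.0%, against 50.8% of all genes) and none differed 2-fold. None of the 4 measured neighbours of Igf2r and none of the 4 of Peg3 passed. Airn, the non-coding RNA whose transcription from the paternal allele silences Igf2r in mouse, was at 4.47 in clone 2 and 4.49 in clone 1, not above background. A probe set annotated to Airn and Igf2r together gave 5.06 in clone 2 and 5.50 in clone 1, also not above it. Beside Peg10, which starts next to Sgce in the opposite orientation, 4 of 9 neighbours passed. Sgce, a sarcoglycan, was at 8.57 in clone 2 and 8.54 in clone 1, nearly level between the clones like Peg10. Casd1, a sialic acid acetyltransferase of the same region, was at 8.48 in clone 2 and 7.69 in clone 1, the largest difference among the neighbours, while its other probe set gave 6.28 in clone 2 and 6.69 in clone 1. Copg2, a coat protein gene that overlaps the end of Mest, was at 9.52 in clone 2 and 9.58 in clone 1. Ndn, a paternally expressed gene of the Snrpn domain, was the 1 of 5 there above background. Its brightest probe set gave 8.23 in clone 2 and 7.72 in clone 1, and of its 5 probe sets above background in both clones 3 were higher in clone 2 and 2 in clone 1. The neighbours of highest signal, Sf3b5 beside Plagl1 (11.86 in clone 2 and 12.02 in clone 1) and Fignl1 beside Grb10 (10.91 in clone 2 and 10.67 in clone 1), encode a splicing factor and a DNA repair ATPase. The choice of Airn, Sgce and Copg2 was made after seeing their values.

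Of 18 other imprinted genes measured, 10 were above background in both clones (55.6%, against 50.8% of all genes), and none was 2-fold apart. Their median difference was 0.11, against 0.08 over all genes above background in a clone or both. The zinc finger gene Zfp64 (9.15 in clone 2 and 8.62 in clone 1) and Commd1, a copper and NF-kB regulator (10.45 in clone 2 and 10.14 in clone 1), differed most. Gnas, which encodes the stimulatory G protein alpha subunit (10.86 in clone 2 and 10.87 in clone 1), and the retrogene Mcts2 (10.38 in clone 2 and 10.44 in clone 1), whose probe set may also read its parent gene, had the highest signals.

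Of 26 listed genes that lay down, keep or erase imprints, 25 were measured. All 25 were above background in both clones, against 50.8% of all genes. Without probe sets that may bind several transcripts 19 passed, and with the mean over probe sets 23. The median difference of the list was 0.12, against 0.08 over all genes above background in a clone or both. The co-repressor Trim28 was at 13.21 in clone 2 and 13.26 in clone 1 and the chromatin subunit Rbbp4 at 12.83 in clone 2 and 12.82 in clone 1, the highest signals of the list. Zfp57, the zinc finger protein that recognises TGCCGC, was at 7.58 in clone 2 and 8.33 in clone 1 (7.95 ± 0.53, SD, n = 2) in its only probe set with a single symbol, higher in clone 1 by 1.68-fold. Arid4a, a chromatin protein that in mice takes part in imprinting of the Snrpn domain, was at 8.34 in clone 2 and 6.57 in clone 1, 3.41-fold higher in clone 2 and the 1 gene of the list to differ 2-fold. The clone 1 value lay near its background level of 6.36. Its other 2 probe sets were not above background and were lower in clone 2. They gave 4.11 in clone 2 and 4.75 in clone 1, and 3.24 in clone 2 and 3.84 in clone 1. Of genes above background in at least 1 clone, 0.358% were 2-fold higher in clone 2.

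Ligands, partners and paralogues of the 10 gene products were above background in both clones for 20 of 26 measured. That is 76.9%, against 50.8% of all genes. Their median difference was 0.04, against 0.08 over all genes above background in a clone or both. Igf2, the ligand cleared by Igf2r, was at 5.64 in clone 2 and 7.03 in clone 1 in its brighter probe set. The other gave 3.11 in clone 2 and 3.50 in clone 1, not above background. The brighter was not above background in clone 2 either, so its signal was at least 1.68-fold higher in clone 1. By the signals as deposited, Igf2 was the 1 gene of the list counted as 2-fold apart. In the same direction 0.133% of the 9766 genes above background in a clone or both were 2-fold apart. Igfbp3, which binds IGFs outside the cell, gave 7.56 in clone 2 and 6.61 in clone 1 in 1 probe set and 6.96 in clone 2 and 6.83 in clone 1 in the other. The core spliceosomal genes Snrpe (12.70 in clone 2 and 12.66 in clone 1) and Snrpg (12.84 in clone 2 and 12.87 in clone 1), which act beside the Snrpn product, had the highest signals.

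**Figure D4:**
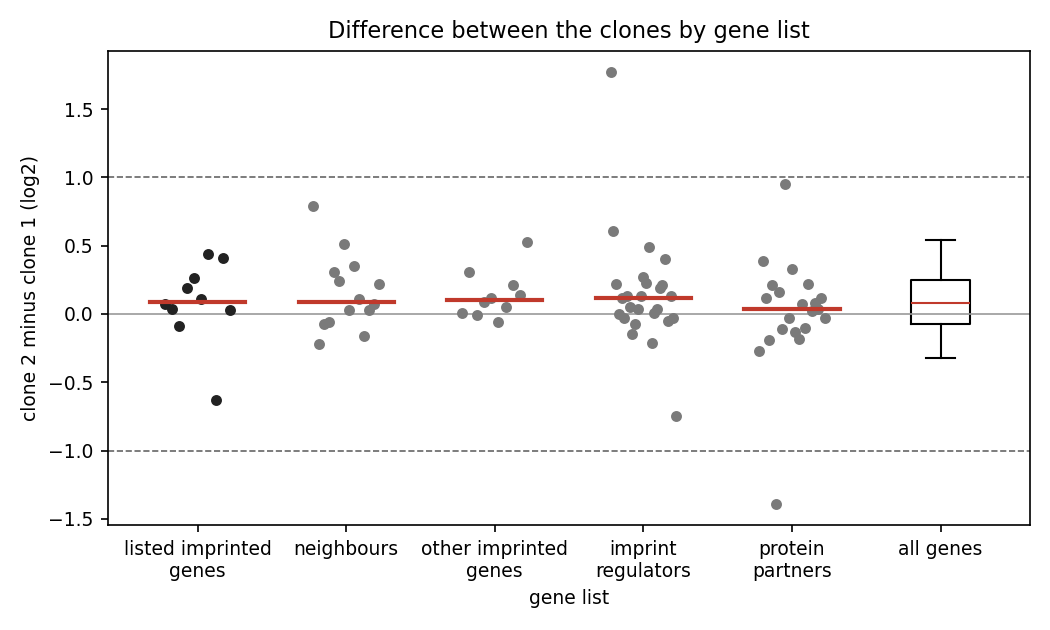
Difference between the clones (clone 2 minus clone 1, log2) for genes that passed the background level in a clone, by list, with the list median in red. The box labelled all genes spans the quartiles (-0.07 to 0.25) with whiskers at the percentiles 5 and 95 (-0.32 and 0.54), over the 9766 genes that passed in a clone or both, and dashed lines mark 2-fold. The medians of the 10 imprinted genes (0.09) and of the box (0.08) lie side by side, and the points past the dashed lines are Arid4a and Igf2.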

How the data were processed

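The deposited table holds a log2 signal for each probe set in each array. Per the submitters' processing notes the authors used Transcriptome Analysis Console; how they corrected background, summarised and normalized, and with which other arrays, was not given in the sources used here. Base 2 was inferred from values between 2.21 and 14.38. Values have 2 decimals and were used as deposited (medians 5.18 in clone 2 and 5.27 in clone 1). The number of arrays limits the precision. Genes were named through the platform annotation from the 34945 probe sets with 1 symbol. Another 932 had several symbols and 9160 are unnamed here. A gene was represented by its probe set of highest mean. Clone numbers come from the sample titles, and nothing in the labels says whether the clones were cultured or hybridised apart. The rule of size was 2-fold or more, the brighter clone being above background, and where 1 clone was below background the fold is a bound against its level. Members and lists were chosen with earlier results of these data known. All probe sets of the 10 genes were named, and of the neighbour, other imprinted, imprint regulator and protein partner lists the members with the 2 largest differences and the 2 highest signals and any 2-fold apart. Calculations used Python 3.11.15 with pandas 2.3.3 and were tested on simulated data. The differences planted there were larger than any seen in the 10 genes. Alternatives were 3 normalizations, other background levels, other choices of probe sets and each clone alone.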

Additional observations from a re-analysis of the deposited data

Results flagged for a closer look

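Probe sets annotated to Snurf and Snrpn together were outside the comparison, because only probe sets with a single symbol were counted, and 4 of them carried signal well above the background levels. Their means over both clones were 11.79, 11.73, 11.62 and 11.37. The probe set annotated to Snrpn alone had a mean of 6.45.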

How the results depend on the processing

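The count of imprinted genes above background in both clones, 10, was 9 at a 99th percentile background. It was 7 when the probe sets of a gene were averaged or without probe sets that may bind several transcripts. Under the other alternatives it was 10. By construction it could not fall for each clone alone, without a filter, at lower background levels or with the second brightest probe set. The count differing 2-fold was 0 under every alternative run, and the largest absolute difference of a member under any was 0.76. The median difference ranged from 0.03 to 0.23, the highest with the second brightest probe set standing for a gene, and over all genes past the background of each alternative from -0.01 to 0.17. Of the 10 genes, 5 changed direction under at least 1 alternative. Peg10 and Ube3a did under quantile and loess normalization, Peg3 under these and with its second probe set, Impact with the mean over its probe sets (-0.16) and Igf2r with its second probe set (0.53), while Mest reached 0 after median centring. Without a background filter, the counts above background were 35 neighbours and 18 other imprinted genes by construction. With the mean over probe sets 6 other imprinted genes passed, and without probe sets that may bind several transcripts 12 protein partners did. The 2-fold count over all genes, 48, was 27 at a 99th percentile background, 83 with background from sensory receptors, 186 with no filter and 25 when probe sets were averaged. Arid4a was not 2-fold apart by the mean over probe sets, which left 0 imprint regulators past that size. Among protein partners 2 were 2-fold apart after median centring, and 0 with background at the 99th percentile or the mean over probe sets. The causes were not tested. Background without Mylpf, the second probe set and the inclusion of probe sets with a second gene were chosen after seeing the data. No paired analysis was possible because both arrays belong to 1 group.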
